A study of Mus musculus with 8 samples.

Results

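The genes examined here are the 2 chains of the CD8 coreceptor (Cd8a, Cd8b1) and 8 genes of cytotoxic lymphocytes: the granzymes Gzma, Gzmb, Gzmk and Gzmm, perforin (Prf1), the granule membrane protein Nkg7, cathepsin W (Ctsw) and the chemokine Ccl5. They were chosen by gene symbol, and the array annotation gives 12 probe sets to these 10 genes, of 22626 probe sets that are not controls and 12393 genes. Affymetrix mouse arrays measured RNA of flow-sorted lymph node cells of the inbred strain B10.BR, from naive mice (3 arrays) and from immunized mice at day 7 (3 arrays) or day 28 (2 arrays). Neither the immunogen, the population that was sorted nor the age of the mice is given in the labels. Whether each replicate came from its own animal is also not given, so a p-value here covers only the spread from array to array, which may be technical. In such bulk samples, fewer cells of a type and less RNA per cell cannot be told apart.

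CD8 is a coreceptor that binds MHC class I and marks cytotoxic T cells. It is a pair of 2 alpha chains or of an alpha and a beta chain, and the alpha chain alone is also found on some dendritic cells. On meeting a target, cytotoxic T cells and NK cells release granules in which perforin opens the target membrane and granzymes, a family of serine proteases, cut proteins inside it. Helper T cells can also make some of these proteins.

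Values are log2 ratios. As far as the numbers show, each probe set was divided by its median on the 8 arrays, unless that was below a floor shared by all probe sets, which was then used instead, so levels of different genes cannot be compared. The median ratio was 1 for 5 member probe sets and under 1 for the other 7, so those 7 were scaled to the floor. A constant divisor leaves log2 differences between groups unchanged. Whether low signal made these differences too small was not tested. A probe set was tested if its ratio was at least 1 on at least 2 arrays, which kept 13042 probe sets and, of the members, 8 probe sets for 8 genes. Cd8b1 passed only through the 2 day 28 arrays, and Gzmb and Gzmk only through 2 of the day 7 arrays. Differences were tested with limma over the 13042 probe sets, and a difference is said to have risen or fallen only at an adjusted p under 0.05.

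Group was not the only divide between arrays. On the first principal component, which held 43.7% of the variance, day 7 ran from -71.7 to -55.4 and naive replicate 1 was close by at -44.5, whereas naive replicates 2 and 3 scored 64.5 and 85.4 and day 28 scored 35.2 and 44.3. The median log2 ratio of 9 hybridisation spike-in probe sets was between -1.82 and -1.05 on naive replicate 1 and the day 7 arrays, and between 0.64 and 1.54 on the others. These sets are named the low and high spike-in arrays here. Differences within a set are given below only for the CD8 chains, Nkg7, Gzmb and Ctsw, and for no gene of the lists. Day 28 and day 7 share no set. The term for the spike-in level, an alternative used below, marked each array as low or high. With it, day 7 was compared with naive replicate 1 alone, and day 28 with naive replicates 2 and 3. These are the differences within the sets again, not separate support. Its day 28 against day 7 difference also rests on naive replicate 1.

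**Figure D1:**
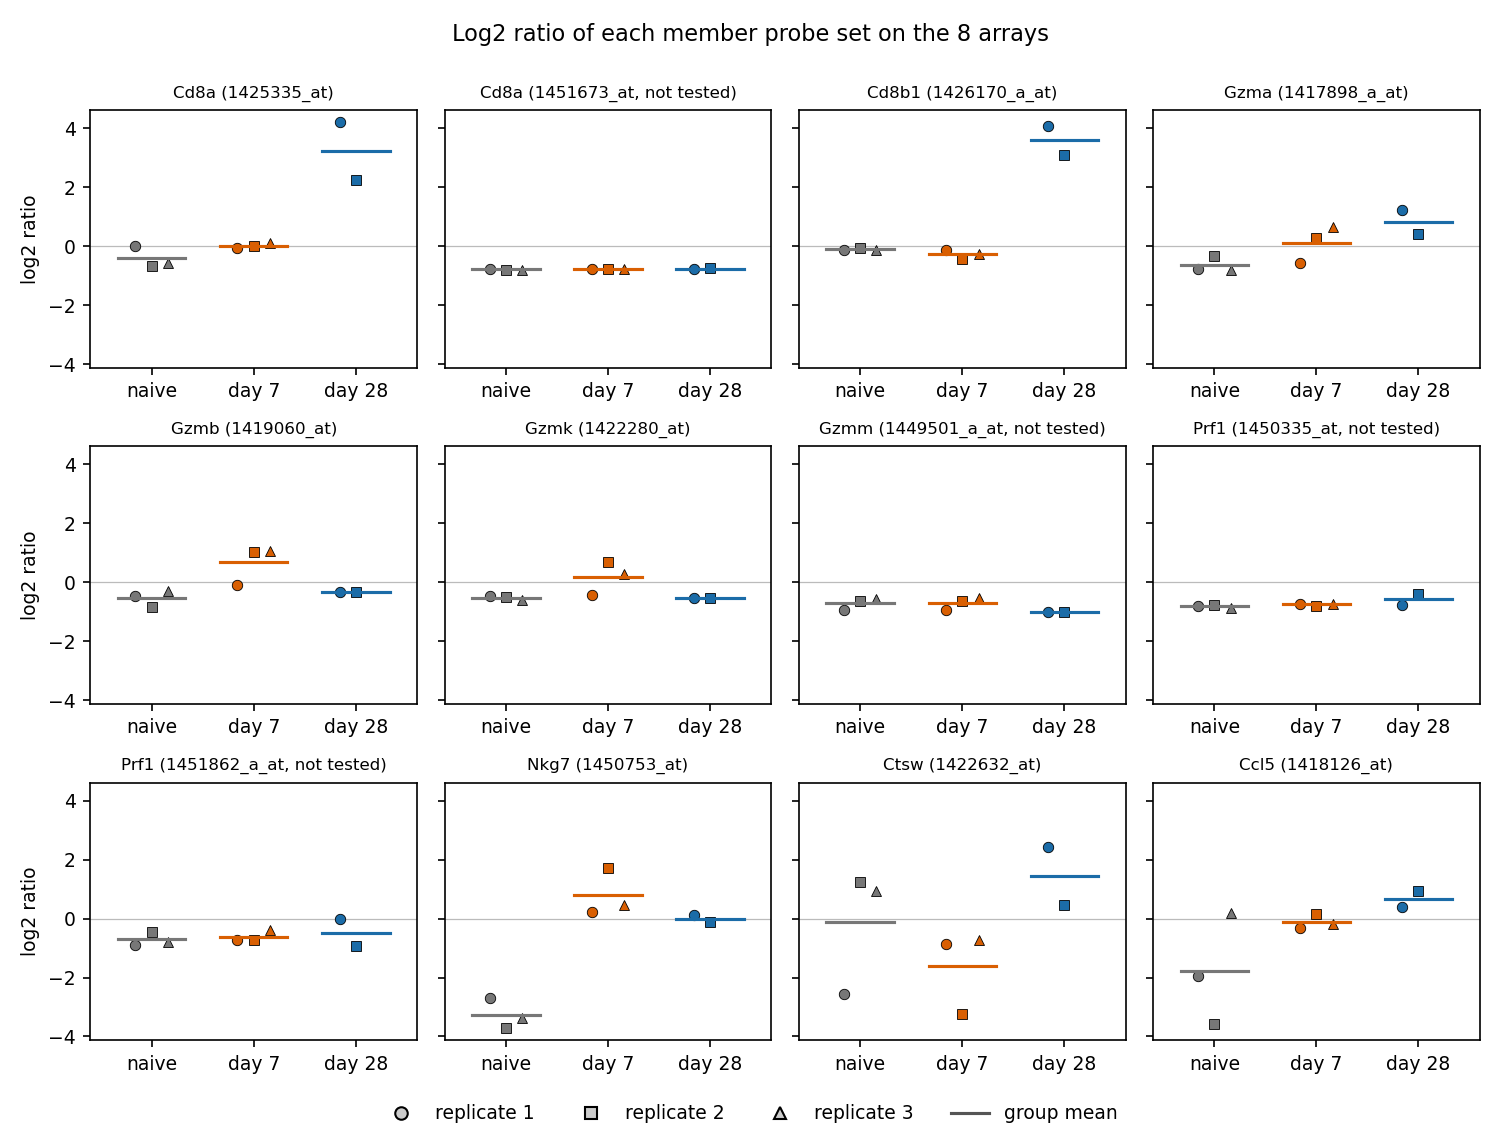
Log2 ratio (vertical axis) of each of the 12 member probe sets on the 8 arrays, by group; points are arrays, lines are group means. Cd8a (1425335_at) and Cd8b1 lie above 2 on both day 28 arrays and at or below 0.11 on all others, and Nkg7 lies below -2 on the naive arrays only.

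The CD8 chains were high on the day 28 arrays. Both genes are neighbours on chromosome 6 in the RefSeq gene order. Cd8b1 (gene ID 12526, probe set 1426170_a_at), the beta chain, had log2 ratios of -0.13, -0.06 and -0.14 in naive mice, -0.13, -0.44 and -0.26 in day 7 mice, and 4.07 and 3.10 in day 28 mice. Cd8a (gene ID 12525, probe set 1425335_at), the alpha chain, had 0.0029, -0.69 and -0.56 in naive mice, -0.07, -0.0029 and 0.11 in day 7 mice, and 4.21 and 2.25 in day 28 mice. Both day 28 arrays lay above every other array for both genes, and replicate 1 was the higher of the pair each time. The second Cd8a probe set, 1451673_at, ran only from -0.81 to -0.75 over the 8 arrays, with a median ratio of 0.584, and was not tested. It did not follow 1425335_at and reached a ratio of 1 on no array. The high Cd8a values at day 28 therefore rest on 1425335_at alone. Whether 1451673_at can detect a change in Cd8a at this signal was not tested.

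Against naive arrays, Cd8b1 rose 13.0-fold at day 28 (3.59 ± 0.69 at day 28, SD, n = 2, and -0.11 ± 0.045 in naive arrays, n = 3; log2 difference 3.70 ± 0.35, SE, limma adjusted p = 0.00936). It ranked 11 of the 13042 probe sets by p. With no filter, which removes the selection through day 28, its adjusted p was 0.0199. Cd8a differed by about as much, 3.65 ± 0.55 on the log2 scale (3.23 ± 1.39 at day 28 and -0.42 ± 0.37 in naive arrays), and missed the threshold (adjusted p = 0.058). Within the high spike-in arrays alone, day 28 minus naive replicates 2 and 3 gave 3.69 for Cd8b1 and 3.86 for Cd8a.

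Against day 7 arrays, Cd8b1 rose 14.6-fold at day 28 (log2 difference 3.87 ± 0.35, adjusted p = 0.00559) and Cd8a 9.31-fold (3.22 ± 0.55, adjusted p = 0.0433). All day 7 arrays were low and both day 28 arrays high spike-in arrays. This comparison therefore cannot tell time from that split. At day 7 against naive neither chain passed the threshold. The log2 difference was -0.17 for Cd8b1 (95% interval -0.91 to 0.57, adjusted p = 0.810) and 0.43 for Cd8a (-0.72 to 1.58, adjusted p = 0.686). The calls rest on few arrays. Cd8b1 against naive was not called without day 28 replicate 1 (3.21, adjusted p = 0.0571) or naive replicate 3 (3.68, adjusted p = 0.0505), with only the 2 groups compared (adjusted p = 0.157), or with trended and robust variance (adjusted p = 0.0546), and against day 7 it was not called with a term for the spike-in level (3.84, adjusted p = 0.142). Cd8a against day 7 was not called with no filter (adjusted p = 0.0868), the stricter filter (0.0549), only the 2 groups (0.0509), trended and robust variance (0.0970) or the spike-in term (0.233), nor without day 28 replicate 1 (2.24, adjusted p = 0.125), day 7 replicates 1, 2 or 3 (adjusted p = 0.105, 0.109 and 0.169) or naive replicates 2 or 3 (adjusted p = 0.0754 and 0.0695). Its difference from naive was 2.66 without day 28 replicate 1 and 4.63 without day 28 replicate 2 (adjusted p = 0.0181).

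**Figure D2:**
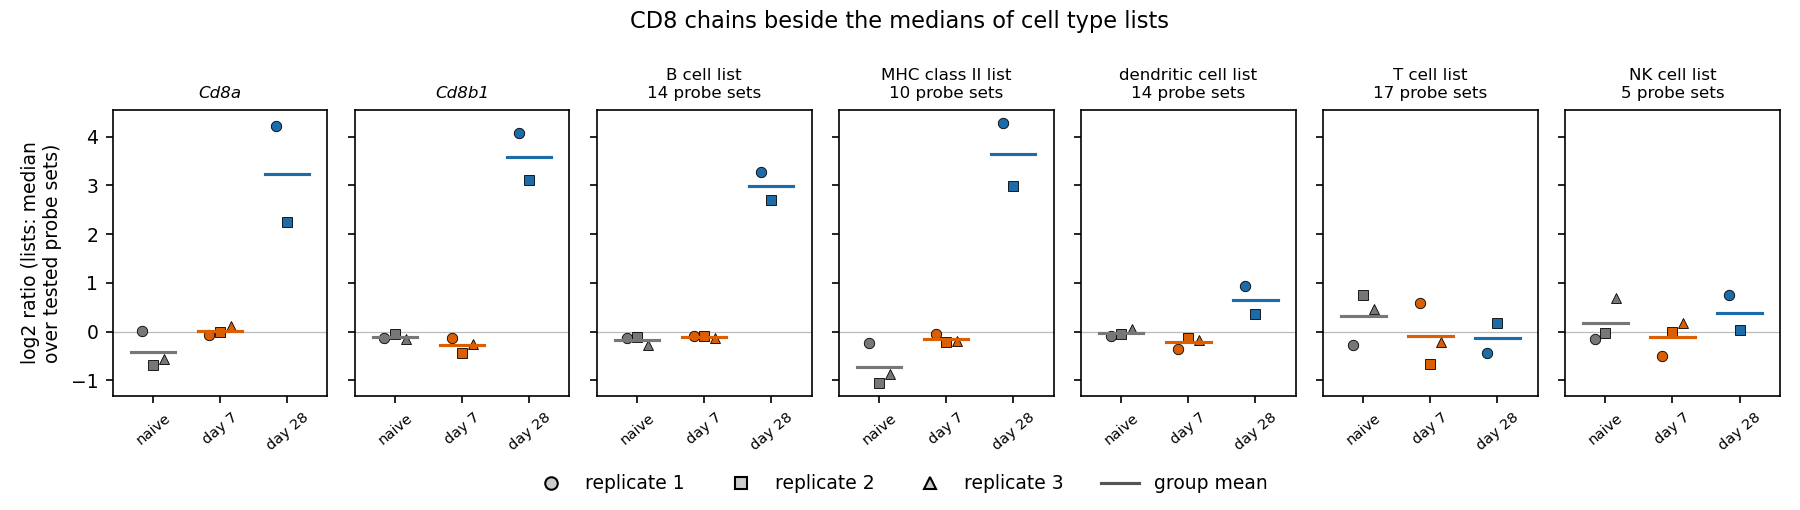
Log2 ratio of the CD8 chains (first 2 panels) and median log2 ratio of the tested probe sets of 5 cell type lists, by group; points are arrays, lines are group means. The B cell and MHC class II medians lie at 2.70 to 4.28 on the day 28 arrays, where the CD8 chains are also high, while the T cell median lies at -0.45 and 0.18 there.

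Genes of other cell types moved on the same arrays as the CD8 chains. Of 14 tested B cell probe sets (11 genes), 7 rose at day 28 against naive, where 0.268% of all probe sets tested rose (median log2 difference 3.54, against -0.05 over all probe sets tested). The median B cell log2 ratio was 3.27 and 2.70 on the day 28 arrays, between -0.12 and -0.09 at day 7, and between -0.28 and -0.12 on the naive arrays. Cd79b, which passes on signals from the B cell antigen receptor, had 6.61 and 5.84 at day 28, against -0.13, -0.09 and 0.63 in naive arrays. Of 10 tested MHC class II probe sets, 6 rose against the same background (median 3.86). Cd74, the class II invariant chain, had 5.67 and 6.23 at day 28, against -0.72, -2.58 and -1.67 in naive arrays.

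The T cell list had no call at day 28 against naive. Of 17 tested T cell probe sets (12 genes), limma called 0 at day 28 against naive, and 0 had an unadjusted p under 0.05 (background 6.34%). Their median log2 difference was -0.32. Cd3e, a chain of the T cell receptor complex, had -2.43 and 2.68 at day 28, against 0.10, 1.18 and -0.40 in naive arrays, so the 2 day 28 arrays lay on either side of all naive arrays. Cd4, the coreceptor of helper T cells, had -2.43 and 0.42 at day 28, against 0.21, 1.31 and -2.32 in naive arrays, by probe set 1419696_at. By its other probe set, 1427779_a_at, Cd4 had 0.61 and -0.02 at day 28, against -0.73, 0.29 and 0.64 in naive arrays.

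Dendritic cells that carry CD8 alpha were represented by 14 tested probe sets of 7 genes. Of these, 2 rose at day 28 against naive (background 0.268%), and 6 were higher and 0 lower at an unadjusted p under 0.05 (background 6.34% in either direction; median 0.41). Those that rose were for the transcription factor Irf8 (3.83 ± 0.37, adjusted p = 0.00954) and the surface antigen Cd24a (4.17 ± 0.43, adjusted p = 0.0128), both of which B cells also express. The other Irf8 probe set and the other 2 of Cd24a did not pass (adjusted p = 0.884, 0.409 and 0.395). Tcf4 is a transcription factor of plasmacytoid dendritic cells that B cells also express. By 2 probe sets it had differences of 2.24 and 1.31 (adjusted p = 0.406 and 0.593). By its other 3 tested probe sets they lay between -0.11 and 0.04, and its probe set 1434148_at was not tested. The other tested genes of the list were Flt3, Ly75, Bst2 and Ccr9. Their differences were -0.08, -0.20, -0.03 and -0.03 (limma adjusted p = 0.998 for each). The integrin gene Itgax had -1.03 and -1.04 at day 28, against -0.67, -0.72 and -1.08 in naive arrays, and was too dim to be tested, as were Xcr1, Batf3 and Zbtb46. Of 5 tested NK cell probe sets limma called 0 at day 28 against naive, and 1 had an unadjusted p under 0.05. This was the signalling adaptor Tyrobp, also found in myeloid cells, with 3.24 and 1.53 at day 28, against -0.33, -0.02 and -0.49 in naive arrays. Ncr1, which encodes the NK receptor NKp46, ran from -0.79 to -0.53 over the 8 arrays and was not tested. The part of B cells or other cell types in the CD8 difference was not tested.

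The probe sets most like the CD8 chains included several of B cell genes. For Cd8a, the 5 highest Pearson r over the 8 arrays among 11790 probe sets of other genes were those of Ly6d (0.996), Mef2c (0.992), Cr2 (0.987), Syk (0.986) and Fcer2a (0.980). For Cd8b1 they were the immunoglobulin segment Ighv14-2 (0.994), Cr2 (0.992), Cd79b (0.992), Swap70 (0.991) and Casq1 (0.991). Cr2 and Fcer2a encode complement and IgE receptors of B cells, and Syk a kinase of B cell receptor signalling. Cd8a and Cd8b1 correlated at r = 0.963 with each other. These values describe 8 arrays of which the 2 from day 28 are far above the rest, and carry no p.

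To show what lies upstream of members with unlike profiles, the 250 bases before the gene start are given for Nkg7, for Gzmb and Gzmk, which correlated with each other over the arrays, and for Cd8a. Sequences are from RefSeq (GRCm38.p6), whose table held 7 of the 10 genes. Nkg7 lies at chr7:43436888-43437137, plus strand, Gzmb at chr14:56262335-56262584, minus strand, Gzmk at chr13:113180966-113181215, minus strand and Cd8a at chr6:71373177-71373426, plus strand. Capitals mark the core motif of RUNX factors, TGTGGT or, read on the other strand, ACCACA, a family that includes Runx3 of CD8 T cells.
Nkg7: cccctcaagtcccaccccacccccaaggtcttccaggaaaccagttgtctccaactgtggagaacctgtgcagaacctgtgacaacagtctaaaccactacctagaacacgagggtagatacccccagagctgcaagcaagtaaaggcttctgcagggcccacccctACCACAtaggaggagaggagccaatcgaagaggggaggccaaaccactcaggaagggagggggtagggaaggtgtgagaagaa
Gzmb: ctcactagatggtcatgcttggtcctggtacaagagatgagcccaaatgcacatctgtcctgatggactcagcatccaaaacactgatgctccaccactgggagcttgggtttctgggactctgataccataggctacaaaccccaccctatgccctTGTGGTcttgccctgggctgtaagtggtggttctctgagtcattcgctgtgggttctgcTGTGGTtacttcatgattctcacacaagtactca
Gzmk: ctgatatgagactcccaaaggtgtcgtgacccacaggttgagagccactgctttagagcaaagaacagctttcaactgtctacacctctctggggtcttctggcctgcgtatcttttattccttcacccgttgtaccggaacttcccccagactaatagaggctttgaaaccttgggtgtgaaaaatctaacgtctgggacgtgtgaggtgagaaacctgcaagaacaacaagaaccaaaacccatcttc
Cd8a: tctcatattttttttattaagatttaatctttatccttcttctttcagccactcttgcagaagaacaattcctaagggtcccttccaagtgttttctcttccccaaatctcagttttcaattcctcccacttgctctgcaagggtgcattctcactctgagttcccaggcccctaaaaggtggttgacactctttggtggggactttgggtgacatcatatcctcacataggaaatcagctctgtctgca

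The motif occurs once in the Nkg7 window, 83 bases before the start, and at 93 and 34 bases before the start of Gzmb. Neither Gzmk nor Cd8a has it in this window. Of the 7 member genes in the table, 5 had it in a window (Gzma, Gzmb, Gzmm, Prf1 and Nkg7), against 15.9% of all 27025 genes in the table. The motif was chosen with these sequences in view, and a match of letters does not show binding. Runx3 itself ran from -0.62 to -0.36 on the arrays and was too dim to be tested.

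Nkg7 (gene ID 72310, probe set 1450753_at), whose protein sits in the membrane of cytotoxic granules, was the one member that rose at day 7. Its log2 ratios were -2.69, -3.73 and -3.37 in naive mice, 0.21, 1.72 and 0.45 in day 7 mice, and 0.12 and -0.13 in day 28 mice. All naive arrays lay below every array of immunized mice, including naive replicate 1, which lay near the day 7 arrays on the first component. It rose 16.6-fold at day 7 against naive (0.79 ± 0.81 at day 7 and -3.26 ± 0.53 in naive arrays, SD, n = 3 each; log2 difference 4.05 ± 0.47, SE, adjusted p = 0.0107). At day 28 it was 3.26 ± 0.52 above naive arrays on the log2 scale, which missed the threshold (adjusted p = 0.0775). The test of day 28 against day 7 gave -0.80 (95% interval -2.01 to 0.42, adjusted p = 0.495), which was -0.33 without day 7 replicate 2 and turned to 0.06 when the spike-in level was fitted.

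Within the low spike-in arrays, day 7 minus naive replicate 1 was 3.48 for Nkg7, and within the high spike-in arrays day 28 minus naive replicates 2 and 3 was 3.54. The day 7 difference lay between 3.48 and 4.34 over all 18 alternatives. It was not called without naive replicate 2 (adjusted p = 0.0689), naive replicate 3 (adjusted p = 0.0667) or day 7 replicate 3 (adjusted p = 0.0615), with trended and robust variance (adjusted p = 0.124), or with a term for the spike-in level (adjusted p = 0.142). The day 28 difference was called without day 7 replicate 2 (adjusted p = 0.0472) and with array weights (adjusted p = 0.0375).

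The granzymes varied far less, and none passed the threshold in any comparison. Gzmb (gene ID 14939, probe set 1419060_at), the protease that triggers apoptosis in target cells, had log2 ratios of -0.47, -0.82 and -0.28 in naive mice, -0.08, 1.04 and 1.07 in day 7 mice, and -0.33 and -0.34 in day 28 mice. The day 7 arrays lay above all naive and day 28 arrays. The difference was 1.20 ± 0.38 at day 7 against naive (adjusted p = 0.195) and -1.01 ± 0.42 at day 28 against day 7 (adjusted p = 0.287). With array weights the day 7 difference was called (1.68, adjusted p = 0.0106). Within the low spike-in arrays it was 1.14.

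Gzmk (gene ID 14945, probe set 1422280_at), a granzyme that cuts after basic residues, followed Gzmb. It had -0.48, -0.49 and -0.61 in naive mice, -0.44, 0.68 and 0.29 in day 7 mice, and -0.52 and -0.54 in day 28 mice. Day 7 replicate 1 was the lowest of the day 7 arrays for both genes, and their r over the 8 arrays was 0.922. The Gzmk difference at day 7 against naive was 0.70 ± 0.33 (adjusted p = 0.361), and at day 28 against naive it was -0.0036 (95% interval -0.87 to 0.86).

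Gzma (gene ID 14938, probe set 1417898_a_at), the neighbour of Gzmk on chromosome 13 and also a protease that cuts after basic residues, was highest on a day 28 array. It had -0.79, -0.32 and -0.80 in naive mice, -0.57, 0.26 and 0.65 in day 7 mice, and 1.22 and 0.43 in day 28 mice. The day 28 arrays lay above all naive arrays (1.46 ± 0.45, adjusted p = 0.519) and overlapped those of day 7. For Gzmb and Gzmk the day 28 and naive arrays overlapped; the difference between these genes was not tested.

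The genes of the pore-forming protein and of granzyme M stayed near the floor. Neither probe set of perforin (Prf1, gene ID 18646) reached a ratio of 1 on any array. Probe set 1450335_at ran from -0.88 to -0.39 and 1451862_a_at from -0.95 to -0.02, with the highest value on day 28 replicate 2 for the first and on day 28 replicate 1 for the second. Gzmm (gene ID 16904, probe set 1449501_a_at), which is abundant in NK cells, ran from -0.99 to -0.52. Its 2 day 28 values, both -0.99, lay below all naive arrays. With no filter, the adjusted p of these probe sets at day 28 against naive was 0.984 for Gzmm, and 0.984 and 0.988 for the Prf1 probe sets. A change in these genes was not detectable at this signal.

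Ccl5 (gene ID 20304, probe set 1418126_at), a chemokine of memory and effector T cells also known as RANTES, had -1.95, -3.56 and 0.20 in naive mice, -0.31, 0.15 and -0.17 in day 7 mice, and 0.41 and 0.95 in day 28 mice. Naive replicates 1 and 2 lay below all arrays of immunized mice, while naive replicate 3 lay above every day 7 array. The difference was 1.66 ± 0.83 at day 7 (adjusted p = 0.378) and 2.45 ± 0.93 at day 28 (adjusted p = 0.698), both against naive. Without naive replicate 3 these were 2.65 (adjusted p = 0.145) and 3.44 (adjusted p = 0.134), and without naive replicate 2 they were 0.77 (adjusted p = 0.667) and 1.56 (adjusted p = 0.898). The day 7 difference was called with array weights (2.55, adjusted p = 0.0224).

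Ctsw (gene ID 13041, probe set 1422632_at), a cathepsin found in CD8 T cells and NK cells, split the naive arrays. It had -2.56, 1.25 and 0.94 in naive mice, -0.87, -3.22 and -0.71 in day 7 mice, and 2.42 and 0.48 in day 28 mice. The low spike-in arrays were all below 0 and the high ones all above 0, whatever the group. Day 28 against day 7 gave 3.05 ± 1.29 (adjusted p = 0.293), with groups that did not overlap. With a term for the spike-in level this turned to -0.61 (adjusted p = 0.954), and the day 7 difference from naive, -1.48 ± 1.15 (adjusted p = 0.547), turned to 0.96 (adjusted p = 0.972). The part of the spike-in split in these differences was not tested further.

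**Figure D3:**
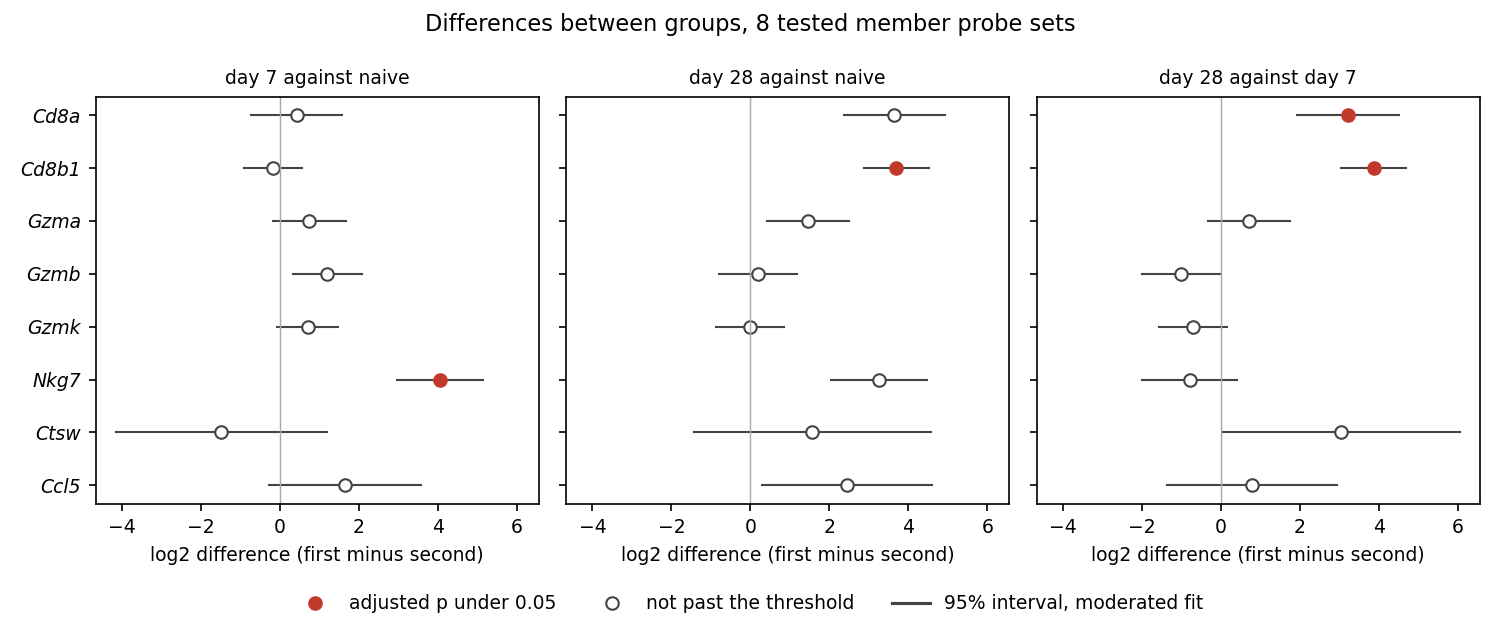
Log2 difference (horizontal axis) of the 8 tested member probe sets in the 3 comparisons, with 95% intervals from the moderated fit; filled points have an adjusted p under 0.05. Nkg7 is called at day 7 against naive, Cd8b1 at day 28 against naive, and both CD8 chains at day 28 against day 7; the widest intervals are those of Ctsw.

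Counted together, 1 of the 8 tested member probe sets rose at day 7 against naive, where 1.06% of all probe sets tested rose, and 0 fell (background 0.107%). The groups did not overlap, with day 7 higher, for 3 of the 8, against 13.4% of all, and with day 7 lower for 0 (8.61%). An unadjusted p under 0.05 was reached by 2 of 8 (background 15.5%). At day 28 against naive, 1 of 8 rose (background 0.268%), 0 fell (0.0537%), 5 were higher without overlap (background 7.76%), 0 were lower without overlap (9.88%), and 5 had an unadjusted p under 0.05 (6.34%). At day 28 against day 7, 2 of 8 rose (background 0.422%), 0 fell (0.882%), 4 had an unadjusted p under 0.05 (16.5%), 4 were higher without overlap (background 15.2%) and 3 were lower without overlap (background 29.7%). Since the members were chosen with results of these data known, and 3 of them were tested only because 1 group was high, these counts describe the genes and support nothing further. The first 2 comparisons share the naive arrays.

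**Figure D4:**
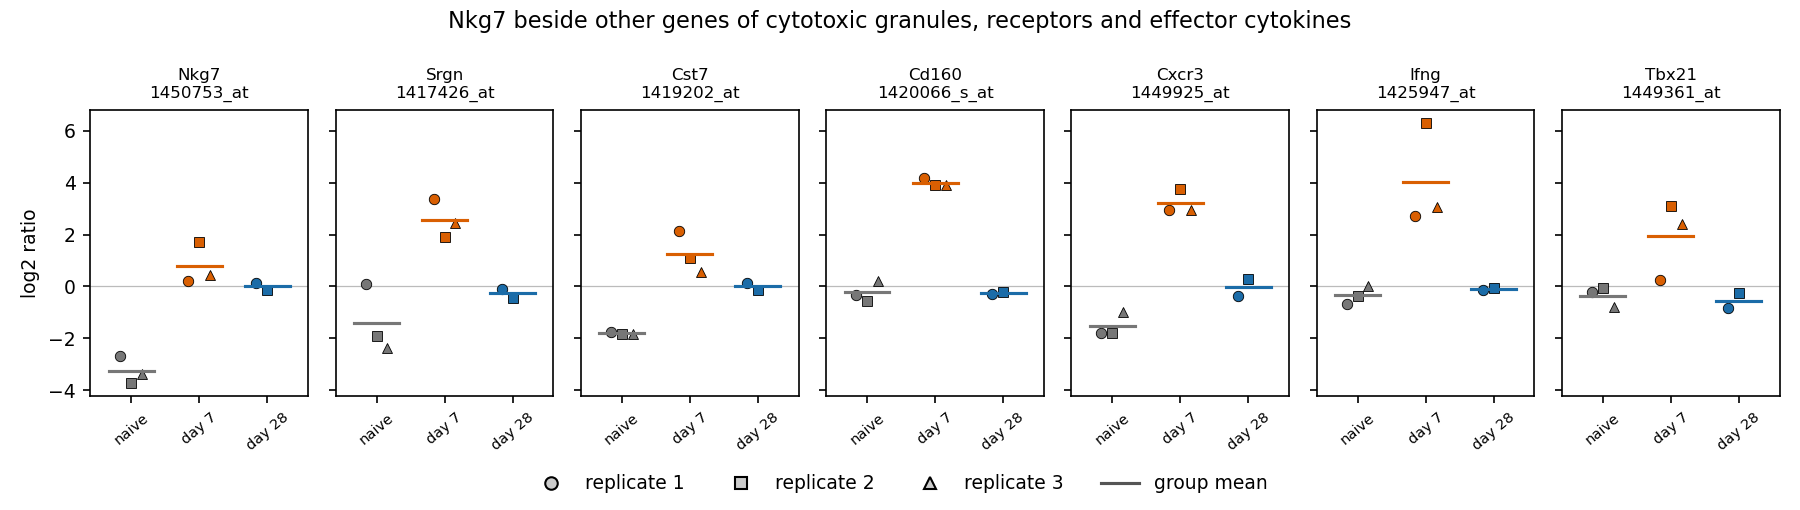
Log2 ratio of Nkg7 and 6 other genes of cytotoxic or effector lymphocytes on the 8 arrays, by group; points are arrays, lines are group means. Cd160 and Cxcr3 lie above 2.9 on all day 7 arrays and below 0.3 on the others. Cst7 and Cxcr3, like Nkg7, lie lowest on the naive arrays.

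Other genes of the cytotoxic pathway were followed by a list of 45, of which 43 were on the array and 31 were tested by 40 probe sets. At day 7 against naive, 4 of the 40 probe sets, for 4 genes, rose (background 1.06%) and 0 fell, and 14 were higher and 0 lower at an unadjusted p under 0.05 (background 15.5% in either direction; median log2 difference 0.40, against 0.11 over all probe sets tested). Cd160, a receptor of NK cells and activated T cells, rose by 4.22 ± 0.29 (adjusted p = 0.00102), with 4.16, 3.90 and 3.92 at day 7 against -0.32, -0.56 and 0.20 in naive arrays. That was by probe set 1420066_s_at, whereas its probe sets 1420067_at and 1420396_at had differences of 0.79 and 1.41 that did not pass (adjusted p = 0.255 and 0.327). Srgn, the proteoglycan that packs granzymes in granules, rose by 3.98 ± 0.68 (adjusted p = 0.0431). It had 3.38, 1.90 and 2.45 at day 7, against 0.09, -1.93 and -2.39 in naive arrays. Its value on naive replicate 1, a low spike-in array, lay above those on both day 28 arrays (-0.10 and -0.45). The part of the spike-in split in the rise of Srgn was not tested. Cst7, the cathepsin inhibitor cystatin F, rose by 3.07 ± 0.41 (adjusted p = 0.0199). Cxcr3, which guides effector T cells to sites of inflammation, rose by 4.74 ± 0.39 (adjusted p = 0.00278).

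Cst7, like Nkg7, was lowest on the naive arrays. It had -1.75, -1.84 and -1.83 in naive mice, 2.15, 1.09 and 0.56 in day 7 mice, and 0.12 and -0.13 in day 28 mice. Other probe sets of the list were lowest there as well. Among them was that of Cxcr3, with -1.80, -1.81 and -0.98 in naive mice and -0.37 and 0.29 in day 28 mice. At day 28 against day 7, Cd160, by the same probe set, fell by 4.25 in log2 units (adjusted p = 0.00333) and Cxcr3 fell by 3.25 (adjusted p = 0.0190). These were 2 of the 40 probe sets (background 0.882%), and 0 rose (background 0.422%). At an unadjusted p under 0.05, 9 were lower and 3 higher (background 16.5% in either direction). At day 28 against naive, limma called 0 of the 40 (background 0.268% higher and 0.0537% lower). An unadjusted p under 0.05 was reached by 4, all higher (background 6.34% in either direction). The median was 0.20, against -0.05 over all probe sets tested.

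The regulators and effectors beside the granules varied. Ifng, the cytokine interferon gamma, had 2.70, 6.30 and 3.07 at day 7, against -0.69, -0.36 and 0.03 in naive arrays (4.37 ± 0.87, adjusted p = 0.0703). Tbx21, which encodes the transcription factor T-bet, had 0.26, 3.10 and 2.41 at day 7, against -0.21, -0.08 and -0.79 in naive arrays (2.28 ± 0.69, adjusted p = 0.179). Both were highest on day 7 replicate 2, the array with the highest Nkg7. Eomes, the related factor of memory CD8 T cells, had a difference of 0.40 ± 0.38 by its tested probe set (adjusted p = 0.625).

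Ctsc, the peptidase that activates granzymes, had a difference of 1.26 ± 0.75 at day 7 against naive (adjusted p = 0.448). Serpinb9, an inhibitor of granzyme B, had 0.33, 3.29 and 1.48 at day 7, against 2.33, -0.60 and -0.90 in naive arrays (adjusted p = 0.501), so naive replicate 1 lay among the day 7 arrays. Klrd1, an NK receptor chain (CD94), was high on naive replicate 1 (2.13) and day 28 replicate 1 (2.75), whereas the remaining arrays ran from -0.69 to 0.32. None of these passed in any comparison.

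The probe sets most like Nkg7 over the 8 arrays were those of Nap1l1 (r = 0.955), Pou2af1 (0.946), Tpd52 (0.946), Ccdc50 (0.932) and S100a4 (0.930). Each was low on the naive arrays and near or above 0 on the others. S100a4, a calcium-binding protein, had -2.31, -2.70 and -2.93 in naive mice, 2.19, 2.06 and 2.30 in day 7 mice, and -0.35 and 0.28 in day 28 mice. The correlations describe the 8 arrays, which share their groups and the spike-in split. The T cell list had a median of -0.21 at day 7 against naive, with 0 of 17 probe sets called by limma. At an unadjusted p under 0.05, 2 were lower and 0 higher (background 15.5% in either direction). The NK cell list had a median of -0.36, with 0 of 5 called and 0 at an unadjusted p under 0.05. Their part in the rise of Nkg7 was not tested.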

How the data were processed

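RNA of 8 samples was measured on 1-colour Affymetrix arrays. The deposited values are linear ratios, made by the authors from levels for which their processing notes give GCRMA, without its version. The scaling per probe set was read from the values: 47.9% of the 22690 probe sets have a median ratio of 1 over the 8 arrays (within 0.0015) and none a higher one. Signal over background and the number of arrays limit the precision.

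Log2 ratios were fitted with limma 3.58.1 in R 4.3.3, with 1 mean per group over all 8 arrays, empirical Bayes moderation, two-sided tests and Benjamini-Hochberg adjustment over 13042 probe sets whose ratio reached 1 on 2 or more arrays. The filter was set for ratios or for levels, and the values proved to be ratios. The fit was tested on simulated data. Probe sets were named through the platform annotation; of 22626, 20380 carried 1 gene symbol, 691 several and 1555 none, and 20351 matched the RefSeq table by gene ID. Every probe set of a member was shown. The members, the lists and the tests were chosen with earlier results of these data known. Genes named besides the members came from the list members called and a fixed set of markers. Not every B cell and MHC class II gene that was called is named. The 5 probe sets with the highest r to Cd8b1 and to each member called were named as well. Runx3, Tyrobp, Tcf4, Xcr1, Batf3, Zbtb46, Flt3, Ly75, Bst2 and Ccr9 were named after their values were seen. Lists covered the cytotoxic pathway, T, gamma delta T, NK, dendritic and B cells, MHC class II, and monocytes and macrophages. Of the gamma delta list 0 genes were tested. Of 9 monocyte and macrophage probe sets limma called 0 in each comparison. At an unadjusted p under 0.05, 1, 2 and 1 were higher (backgrounds 15.5%, 6.34% and 16.5% in either direction). Alternatives were leaving out each array, array weights, a spike-in term, a replicate block, gene means, a fit of only the 2 groups compared, variance with a trend and robust estimation, centring on the median, quantile normalization, and a stricter filter or none.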

Additional observations from a re-analysis of the deposited data

Results flagged for a closer look

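The effects at the 2 times after immunization differed by the test of day 28 against day 7 itself for both CD8 chains. The log2 difference was 3.22 for Cd8a (1425335_at, adjusted p = 0.0433) and 3.87 for Cd8b1 (1426170_a_at, adjusted p = 0.00559), with both day 28 arrays above all day 7 arrays. All day 7 arrays were low and both day 28 arrays high spike-in arrays, so time and that split cannot be told apart here. Both calls also depend on the settings. Cd8a lost its call under 12 of 18 alternatives, among them no filter (adjusted p = 0.0868) and the spike-in term (adjusted p = 0.233), and its second probe set ran only from -0.81 to -0.75. Cd8b1, which was tested only because the day 28 arrays were high, kept its call with no filter (adjusted p = 0.00723) and lost it with the spike-in term (adjusted p = 0.142).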

How the results depend on the processing

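Of 423 repeated values of the 8 tested member probe sets in 3 comparisons under 18 alternatives, 389 stayed on their side of the threshold, 25 lost a call and 9 gained one; 0 called values changed sign, and 10 uncalled ones did. The number of member probe sets called at day 7 against naive, 1, became 3 with array weights and 0 with the replicate block, the spike-in term and trended and robust variance; leaving out 1 array gave 0 to 1. At day 28 against naive, 1 became 3 with array weights, 2 with gene means, median centring and quantile normalization, and 0 with only the 2 groups compared, the replicate block, the stricter filter (which does not test Cd8b1) and trended and robust variance; leaving out 1 array gave 0 to 2. At day 28 against day 7, 2 became 1 with no filter, only the 2 groups compared and trended and robust variance, and 0 with the replicate block, the stricter filter and the spike-in term; leaving out 1 array gave 1 to 2. Over all probe sets, the counts ran from 14 (spike-in term) to 2935 (array weights, whose estimation stopped before convergence) around 152 at day 7 against naive, from 0 (only the 2 groups compared) to 57 around 42 at day 28 against naive, and from 0 (spike-in term) to 1562 (array weights) around 170 at day 28 against day 7. Leaving out naive replicate 1 gave 1727 in the first and 810 in the last. The replicate numbers share no stated source, and same-numbered arrays deviated together at r between -0.36 and 0.17, not always best with their own number. Under the replicate block the adjusted p was 0.0739 for Nkg7 at day 7, 0.0827 for Cd8b1 at day 28 against naive, and 0.0565 and 0.109 for Cd8b1 and Cd8a at day 28 against day 7. Quantile normalization shifted the median of all probe sets tested by -0.11 at day 7 against naive and by 0.17 at day 28 against day 7, and median centring shifted that of day 28 against day 7 by 0.11. Except where a stricter filter left a probe set out, the cause of these changes was not tested. Signal near the floor limits Prf1, Gzmm and the second Cd8a probe set.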

Other observations

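Crtam, an adhesion molecule of cytotoxic T and NK cells, had log2 ratios of 0.95 and 0.96 at day 28, against 0.58, 0.11 and -0.23 in naive arrays (0.80 ± 0.33, limma adjusted p = 0.760). Fasl, the death ligand used by cytotoxic T cells, had 0.55, 0.78 and 1.09 at day 7, against 1.03, -0.97 and -1.06 in naive arrays (1.14 ± 0.56, adjusted p = 0.369, by probe set 1449235_at), so naive replicate 1 lay among the day 7 arrays. Both were named after their values were seen.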
